A study of Homo sapiens with 12 samples.

Results

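Collagens are the triple-helical proteins of the extracellular matrix, and each collagen chain is made from a gene of its own. The genes described here are all those in the count tables whose symbol is COL, a number, A and a number. Membership followed the symbol alone, but this gene family was chosen with earlier results of these data known. Of the 58278 genes listed, 44 have such a symbol, and 40 of these passed the filter on low counts that left 24342 genes for testing. The 4 that did not pass, COL6A5, COL6A6, COL19A1 and COL23A1, had at most 3 counts in any library.

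Collagen chains wind into triple helices in the endoplasmic reticulum, after prolines and lysines have been hydroxylated, and most are trimmed and cross-linked once outside the cell. Fibril-forming collagens give tissue its tensile strength and accumulate in the fibrotic kidney. Type IV collagen forms the sheet-like network of basement membranes, on which tubular epithelium rests, and other types attach to fibrils, anchor the basement membrane or span the cell membrane.

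The cells were HK2, human tubular epithelium of proximal origin that was immortalized, so every library came from 1 cell line. Control cultures (Ctrl) received nothing, and TN cultures received 5 ng/mL of TNF-α over 3 h. In the remaining 4 groups the same TNF-α was combined with a short-chain fatty acid (SCFA) for 24 h: propionate at 15 mM or butyrate at 3 mM. The SCFA came first in PRTN and BUTN, and TNF-α came first in TNPR and TNBU. TNF-α was thereby added longer before harvest in TNPR and TNBU, so order and time since TNF-α cannot be told apart. Each of the 6 groups had 2 biological replicates, so p-values measure the spread between these cultures. No library held an SCFA without TNF-α. The time from plating to harvest of each group is not given in the sources used here, so SCFA and time in culture cannot be told apart. The general treatment text of the labels names thapsigargin and JQ1 instead, while the title of each library and the design text give the treatments used here.

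The 12 libraries held 27269986 to 33851130 expected counts, so that 3 counts, taken as the limit for a count of 0, were worth 0.0867 to 0.112 CPM, the count scaled to library size. Mitochondrial genes took 5.86% to 9.46% of counts. Replicates of TNPR and TNBU differed more from each other than those of the other groups, with a chi-square per gene of 16.7 and 20 against 3.35 to 7.15. The epithelial genes KRT8, KRT18, PAX8 and GGT1 were expressed in all 12 libraries, as was the brush-border gene CUBN, at 1.27 to 1.79 CPM in Ctrl and TN, whereas the brush-border genes MME and LRP2 had no count in Ctrl or TN. Of 16 epithelial markers 9 reached 1 CPM in Ctrl and TN and 11 or 12 with an SCFA, and single markers moved far, KRT19 from 4.47 and 4.6 CPM in TN to between 82.3 and 121 CPM and EPCAM from 56.1 and 58.1 CPM to between 13.3 and 23.2 CPM. Their part in the collagen results was not tested.

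Collagen genes took fewer counts with an SCFA. Their summed level was 8790 ± 112 CPM in Ctrl and 8978 ± 397 CPM in TN (SD, n = 2), and 6230.0 ± 120.0, 6728 ± 243, 5798 ± 366 and 5938 ± 184 CPM in PRTN, BUTN, TNPR and TNBU. Each of the 8 SCFA libraries lay below each of the 4 others, a mean difference of -0.53 on the log2 scale (two-sided exact permutation test over 495 arrangements, p = 0.00202, the smallest possible, and 0.00242 after Benjamini-Hochberg adjustment over 6 measures). CPM here are scaled with TMM factors, and in bulk RNA fewer cells of a kind and less RNA per cell cannot be told apart.

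Most of the fall in counts lay in 3 members. COL4A1, COL4A2 and COL7A1 together went from 6870 ± 263 CPM in TN to between 3260 and 3941 CPM in the SCFA groups, 47.5% to 57.4% of the TN level. The sum of the other members moved the opposite way, although COL8A1, COL16A1 and COL27A1 among them fell, from 2108 ± 134 CPM in TN to between 2536 and 2786 CPM, 120.3% to 132.2% of the TN level. The share of collagen counts from these 3 genes thereby went from 76.5% ± 0.445 in TN to between 56.2% and 58.6%, and that of the fibril-forming genes from 8.17% ± 0.107 to between 16.2% and 16.9%. Levels were also divided by exon length, taken as all annotated exons of a gene merged over its transcripts. On that scale the share of the 3 genes was 67.2% in TN and 43.8% to 46.8% with an SCFA. The merged length can exceed that of the transcript expressed, so ranks and ratios between genes on this scale are approximate. The number of members at 1 CPM or more was 20 in every Ctrl and TN library and 27 or 28 in every SCFA library.

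**Figure D1:**
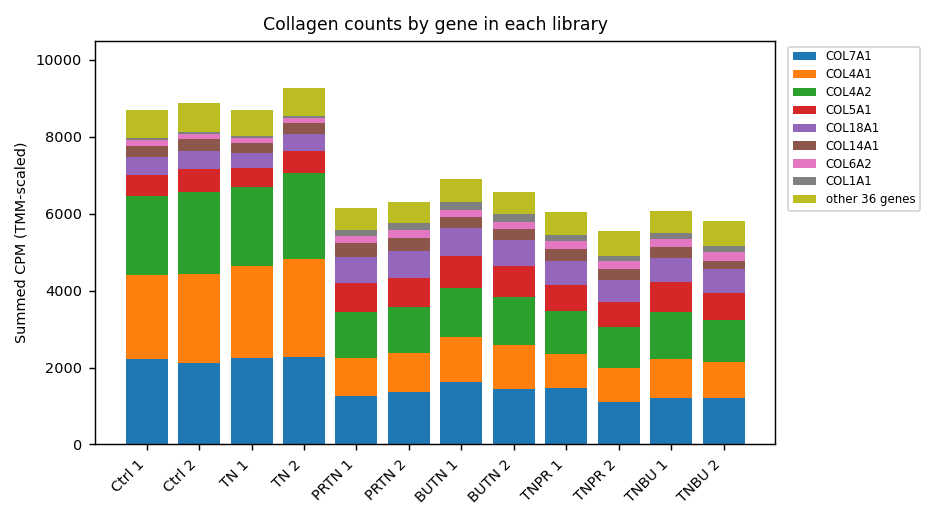
Stacked bars give the summed CPM (TMM-scaled) of the 44 collagen genes in each of the 12 libraries, from 0. The bars of the 8 SCFA libraries are shorter, mainly in the COL7A1, COL4A1 and COL4A2 segments, and their COL1A1 segment is taller.

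TNF-α alone called no collagen gene. In TN vs Ctrl 0 of the 40 tested members rose and 0 fell (limma-voom, more than 1.5-fold with an adjusted p below 0.05), where 0.764% of all tested genes rose and 0.534% fell. edgeR and DESeq2 also called 0. At an unadjusted p under 0.05 there were 5 members. Of these COL4A1 had a log2 fold change of 0.14 ± 0.05 (SE), and COL15A1, COL18A1, COL1A1 and COL9A3 had -0.32, -0.21, -0.22 and -0.92. Their adjusted p ran from 0.132 to 0.277 (limma-voom).

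With an SCFA most members were called. Against TN, 22 members rose and 7 fell in PRTN, where 23.9% of all tested genes rose and 16.7% fell. In BUTN 25 rose and 4 fell, against 23.1% and 14.8% of all genes. In TNPR 23 rose and 6 fell, against 24.9% and 16.9%. In TNBU 25 rose and 6 fell, against 25% and 16.5%. With library size alone as the scaling, which raised the median of all genes by 0.153 to 0.196 on the log2 scale, the counts of risen and fallen members were 24 and 5, 26 and 4, 27 and 6, and 30 and 6. The share of all called genes that rose went from 58.9%, 60.9%, 59.6% and 60.2% to 68.5%, 71.2%, 69.8% and 72%. The 4 comparisons share the TN libraries, so their calls are not independent of each other. A set of 19 members rose in all 4, and COL4A1, COL4A2, COL8A1 and COL27A1 fell in all 4.

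Calls were also counted by level, which is the mean over all 12 libraries and so is itself raised by a rise with an SCFA. Of the 17 members with a mean of 10 CPM or more over the 12 libraries, 5 rose and 7 fell in PRTN, 7 and 4 in BUTN, with 4 and 6 in TNPR and 7 and 6 in TNBU. Among all genes of that level 18%, 15.3%, 18.1% and 16.9% rose and 23.2%, 21%, 24.8% and 24.7% fell. All of the falls were in this range. Of the 9 members between 1 and 10 CPM, 8 rose and 0 fell in each of the 4 groups. Of all genes of that level 35.8%, 35.8%, 37.4% and 37.5% rose and 21.9%, 19%, 20.9% and 19.8% fell in PRTN, BUTN, TNPR and TNBU. Of the 14 tested members under 1 CPM, 9, 10, 11 and 10 rose and 0 fell. Of all such genes 24.3%, 25.1%, 26% and 27.5% rose and 6.87%, 6.04%, 6.28% and 6.01% fell. Without their SCFA libraries 8 members, COL1A2, COL2A1, COL4A3, COL4A6, COL13A1, COL21A1, COL25A1 and COL28A1, would not have reached the filter, so their calls are only listed, and the counts in the lower ranges are a description. The median log2 fold change of the 40 members was 1.45, 1.62, 1.73 and 1.69 in PRTN, BUTN, TNPR and TNBU against 0.0855, 0.0788, 0.118 and 0.0928 over all genes. With 4, 3, 5 and 4 of the genes that had no count in TN set to their lower bound it was 1.38, 1.51, 0.867 and 1.37. Genes too low for a bound in a group kept their fitted values there, so the medians outside TNPR are not full lower bounds.

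**Figure D2:**
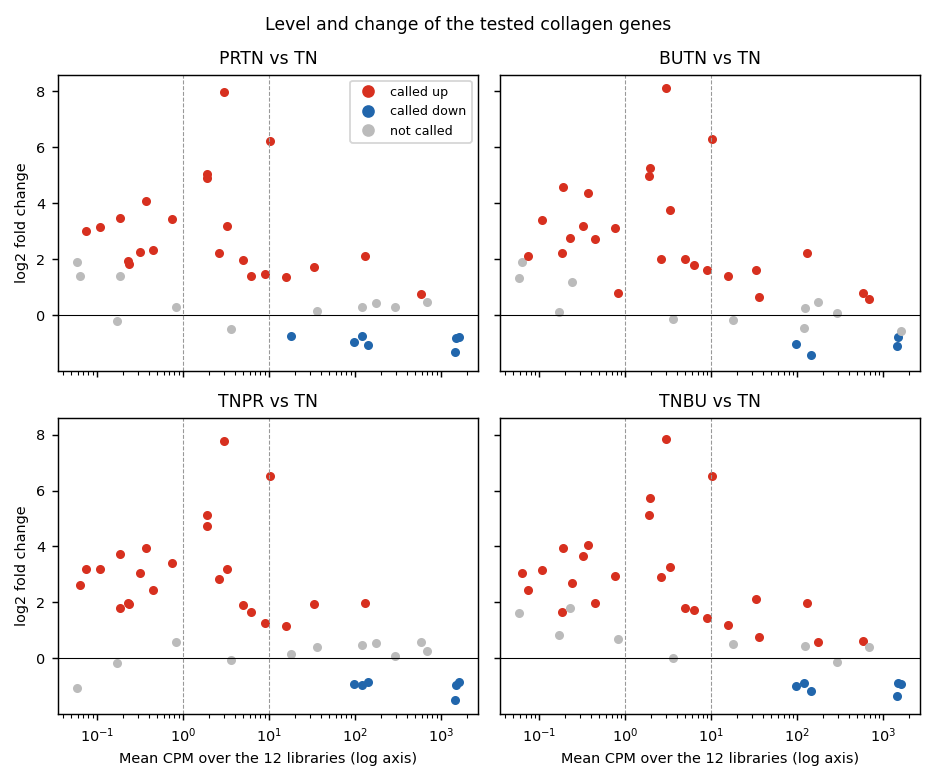
Each panel plots the log2 fold change of the 40 tested collagen genes against TN (vertical axis) over their mean CPM in the 12 libraries (horizontal log axis), with dashed lines at 1 and 10 CPM. Blue points, the genes called down, lie only to the right of 10 CPM, and red points, the genes called up, occur at all levels. Points of genes with no count in TN are fitted values, not bounds.

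Type IV collagen was described first, since its 6 chains come from 3 pairs of genes that lie head to head. COL4A1 and COL4A2 encode the chains of the network found in nearly all basement membranes. In COL4A1 the Ctrl libraries had 2192 and 2304 CPM and the TN libraries 2409.7 and 2550.4 CPM. With SCFA it had 992 and 1012 CPM in PRTN, 1168 and 1139 in BUTN, with 871 and 895 in TNPR and 1021 and 927 in TNBU. Every SCFA library lay far below every TN and Ctrl library. The log2 fold changes against TN were -1.31 ± 0.05, -1.10 ± 0.05, -1.49 ± 0.05 and -1.35 ± 0.05 (adjusted p from 7.38e-10 to 8.73e-09, limma-voom).

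COL4A2 fell less. It had 2046 and 2130.5 CPM in Ctrl and 2035 and 2221 in TN. The SCFA libraries had 1189 and 1219 CPM in PRTN, 1275 and 1244 in BUTN, with 1113 and 1073 in TNPR and 1213 and 1109 in TNBU. Every SCFA library lay below every TN and Ctrl library, at log2 fold changes of -0.82, -0.76, -0.96 and -0.87 with an SE of 0.06 each (adjusted p from 2.77e-08 to 2.6e-07). The ratio of COL4A1 to COL4A2 counts was 1.07 to 1.18 in the 4 libraries without SCFA and 0.783 to 0.916 in the 8 with it, a difference of -0.40 on the log2 scale (exact permutation test, p = 0.00202, the smallest possible). Per merged exon length the ratio went from between 1.41 and 1.56 to between 1.03 and 1.20. These values depend on the merged lengths of 14.66 and 19.27 kb and could differ with the lengths of the transcripts expressed.

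The RefSeq start sites of COL4A1 and COL4A2 lie 127 bp apart on opposite strands, so that both genes are read outward from 1 stretch. In GENCODE 44 the 2 genes overlap, since COL4A2 begins at position 110305812 and COL4A1 extends to 110307157. COL4A2 thus also has an annotated start within COL4A1. Their promoter windows are shown because the pair moved together and in unequal measure. RefSeq windows of 300 bases (250 before and 50 after the start, GRCh38.p14) were matched for 32 of the 44 genes. COL1A1, COL1A2, COL2A1, COL3A1, COL5A2, COL6A1, COL6A5, COL8A1, COL9A3, COL14A1, COL20A1 and COL22A1 had none in the table. Capitals mark the GC box GGGCGG and the CCAAT box, each searched on both strands, and no match of one overlaps a match of the other in the windows shown.
COL4A1 at chr13:110307108-110307407, minus strand: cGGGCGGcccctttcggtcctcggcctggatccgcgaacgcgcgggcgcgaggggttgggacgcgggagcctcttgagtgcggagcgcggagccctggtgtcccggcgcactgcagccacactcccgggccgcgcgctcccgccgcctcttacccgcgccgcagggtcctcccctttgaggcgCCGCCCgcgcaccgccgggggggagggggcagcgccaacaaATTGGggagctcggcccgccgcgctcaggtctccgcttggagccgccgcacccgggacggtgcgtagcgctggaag
COL4A2 at chr13:110307034-110307333, plus strand: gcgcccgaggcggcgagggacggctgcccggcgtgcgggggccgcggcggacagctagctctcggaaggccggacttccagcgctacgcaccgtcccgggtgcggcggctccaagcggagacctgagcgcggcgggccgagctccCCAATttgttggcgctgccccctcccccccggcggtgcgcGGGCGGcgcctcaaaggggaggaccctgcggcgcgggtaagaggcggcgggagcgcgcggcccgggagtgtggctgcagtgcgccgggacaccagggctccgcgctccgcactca
The windows share 226 bases, with 1 GC box and 1 CCAAT box, and the COL4A1 window holds a further GC box. GC content was 76.7% and 77.7%, against a median of 58.7% over all 35116 windows. Of all windows, 45% held GGGCGG and 34.6% held CCAAT, and of the 44 windows of collagen genes 54.5% and 31.8% did.

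COL4A5 and COL4A6, on the X chromosome, encode chains of the second type IV network, which occurs in Bowman's capsule and around some tubules. COL4A5 rose from 7.78 and 8.15 CPM in TN to 19.6 and 21.3 in PRTN, 20.4 and 21.7 in BUTN, with 17.9 and 17.7 in TNPR and 19.2 and 17.1 in TNBU. Its Ctrl libraries, at 10.2 and 8.53 CPM, lay below all SCFA libraries too. The log2 fold changes were 1.35 ± 0.11, 1.40 ± 0.11, 1.16 ± 0.11 and 1.18 ± 0.11 (adjusted p from 4.67e-07 to 2.16e-06). COL4A6 had no count in the 4 libraries without SCFA and 1 to 5 counts in each SCFA library. The fit called it up in all 4 groups. Set against 3 counts per TN library, PRTN was at least 1.22-fold and TNPR at least 1.4-fold higher, and BUTN and TNBU were at or under that limit.

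The windows of this pair are shown for contrast with the first. The start sites lie 380 bp apart, and the windows overlap by 121 bases.
COL4A5 at chrX:108439588-108439887, plus strand: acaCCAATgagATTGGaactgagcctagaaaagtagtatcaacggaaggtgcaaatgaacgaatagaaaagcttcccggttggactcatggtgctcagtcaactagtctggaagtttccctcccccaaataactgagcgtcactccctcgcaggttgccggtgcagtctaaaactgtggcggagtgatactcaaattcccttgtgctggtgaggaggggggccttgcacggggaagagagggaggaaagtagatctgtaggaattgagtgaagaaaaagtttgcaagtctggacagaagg
COL4A6 at chrX:108439409-108439708, minus strand, 1 of 2 windows listed: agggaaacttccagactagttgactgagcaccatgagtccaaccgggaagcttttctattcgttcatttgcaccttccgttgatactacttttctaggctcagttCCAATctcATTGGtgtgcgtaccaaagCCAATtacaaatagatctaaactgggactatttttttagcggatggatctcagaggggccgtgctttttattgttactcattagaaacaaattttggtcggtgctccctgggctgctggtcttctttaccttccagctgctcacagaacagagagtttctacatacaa
GC content was 49.3% and 43.7%, the windows held 2 and 3 CCAAT boxes, and neither held GGGCGG. The ratio of COL4A5 to COL4A6 counts, with 0.5 added to each, changed by -1.56 on the log2 scale. This value rests on the zero counts of COL4A6, so no test of it is used.

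COL4A3 and COL4A4, whose products belong to the network of the glomerular basement membrane, stayed near the detection limit. COL4A4 had 1 and 3 counts in Ctrl, 3 and 1 in TN, and 5 to 19 in the SCFA libraries. It was called up in PRTN, TNPR and TNBU, at log2 fold changes of 1.82, 1.95 and 2.68, and not in BUTN (1.20 ± 0.67, adjusted p = 0.149, limma-voom). COL4A3 had 0 to 5 counts in every library and was called in none. The podocyte gene NPHS1 rose from 0.186 and 0.215 CPM in TN to between 1.62 and 3.54 CPM with an SCFA. Its part in the COL4A4 values was not tested.

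**Figure D3:**
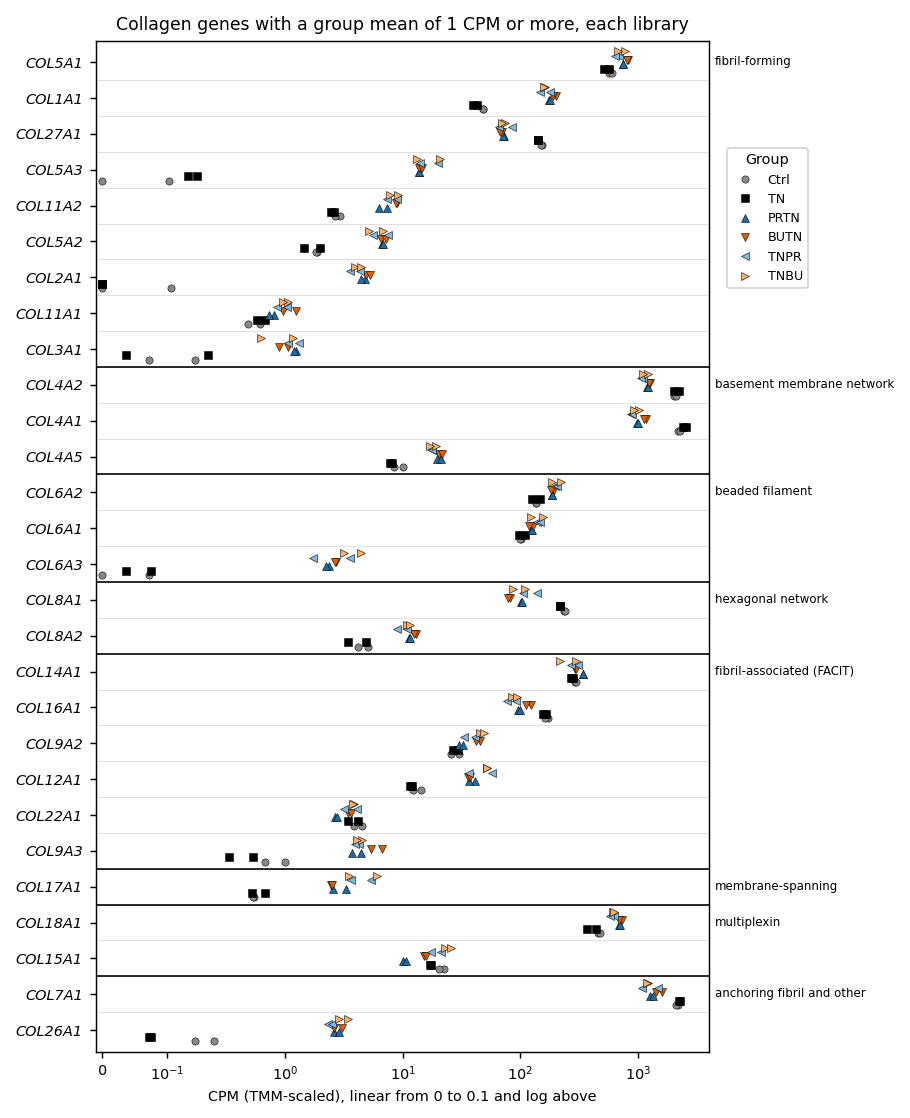
Points give the CPM (TMM-scaled) of the 28 collagen genes with a group mean of at least 1 CPM in each of the 12 libraries, by class, on an axis that is linear from 0 to 0.1 and logarithmic above. COL4A1, COL4A2, COL7A1, COL8A1, COL16A1 and COL27A1 have their TN and Ctrl points (black and grey) to the right of all SCFA points, and COL1A1, COL5A3, COL2A1 and COL6A3 have them well to the left.

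COL7A1 makes the anchoring fibrils that tie a basement membrane to the tissue beneath it. Divided by merged exon length it ranked first among the collagen genes in each of the 6 groups. That rank depends on the merged lengths and could differ with the lengths of the transcripts expressed. In counts COL4A1 was higher in TN, with a mean of 2480 CPM against 2262 for COL7A1. COL7A1 had 2210.5 and 2127 CPM in Ctrl and 2239.7 and 2284 in TN. The values were 1267 and 1353 CPM in PRTN, 1617 and 1439.7 in BUTN, with 1479 and 1091 in TNPR and 1213.5 and 1207.5 in TNBU. All SCFA libraries were lower than all libraries without SCFA. The log2 fold changes of -0.79, -0.83 and -0.90 in PRTN, TNPR and TNBU passed the test (adjusted p from 1.05e-05 to 3.03e-05), and -0.57 ± 0.10 in BUTN, 1.48-fold lower, missed the fold threshold.

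The remaining members of this class were scarce without SCFA. COL26A1, a short collagen-related chain, had 2 counts in each TN library and 5 and 7 in Ctrl, against 78 to 106 in the SCFA libraries, at log2 fold changes of 4.73 to 5.12 with SEs of 0.50. COL28A1 had 1 count in each TN library and 6 to 22 with an SCFA. From 2 TN counts in all, its ratio to TN was 7.3 in PRTN (95% counting interval 1.75 to 64.9) and 18.6 in TNBU (4.84 to 159). Such intervals cover counting error only.

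Fibril-forming collagens mostly rose. Of 11 tested, 8 rose and 1 fell in PRTN, TNPR and TNBU, and 10 rose and 1 fell in BUTN, where 23.1% to 25% of all tested genes rose and 14.8% to 16.9% fell over the 4 groups. The risers include COL1A2 and COL2A1, which reached the filter only through their SCFA libraries, so the count of risers is a description. The summed level of the class went from 734 ± 42.1 CPM in TN to between 938.5 and 1123 CPM. COL1A1, which encodes the major chain of type I collagen, had 48.5 and 48.1 CPM in Ctrl and 39.6 and 43.2 in TN. It had 175 and 181 CPM in PRTN, 202 and 189 in BUTN, with 179 and 146 in TNPR and 162 and 160.45 in TNBU. The lowest SCFA library held over 3 times the highest library without SCFA. The log2 fold changes were 2.11, 2.24, 1.97 and 1.96 with an SE of 0.09 each (adjusted p from 2.36e-09 to 6e-09, limma-voom).

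The partner chain did not match it in level. COL1A2, which supplies the second chain of the type I heterotrimer, had 0 counts in all 4 libraries without SCFA and 4 to 14 with an SCFA. Its level was at least 1.87-fold higher in PRTN, 3.84-fold in BUTN, 2.12-fold in TNPR and 2.47-fold in TNBU, taken against 3 counts per TN library. The ratio of COL1A1 to COL1A2 counts with 0.5 added was 445 to 1322 in the SCFA libraries. Without SCFA it was 2127 to 2825, where COL1A2 had no count and the 0.5 added set the ratio. A separation of the ratio was thus close to fixed in advance, so no test of it is used. In counts the first chain thus exceeded the second many times over in every library.

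COL2A1, the chain of type II collagen of cartilage, had 0 counts in both TN libraries and 0 and 3 in Ctrl. It had 167 and 147 counts in PRTN, 155 and 184 in BUTN, with 121 and 137 in TNPR and 113 and 133 in TNBU. Against the limit of 3 counts per library this was at least 42.4-fold, 46.3-fold, 36.3-fold and 38.2-fold higher, and no library of one kind reached the other. COL11A2, a chain of type XI collagen that joins type II fibrils, rose from 2.61 and 2.48 CPM in TN to between 6.31 and 9.09 CPM, at log2 fold changes of 1.42, 1.80, 1.68 and 1.72. COL11A1 was called in BUTN (0.81 ± 0.28, adjusted p = 0.0273) and had 0.60 in TNPR and 0.68 in TNBU (adjusted p = 0.0956 and 0.0625, limma-voom). The call was lost without BUTN replicate 2 (adjusted p = 0.153), without TN replicate 1 (0.0709), without TN replicate 2 (0.145) and with DESeq2 (0.179).

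The type V chains limit the width of fibrils, and the 3 of them were far apart in level. COL5A3 showed the widest change among them, from 4 and 5 counts in TN and 3 and 0 in Ctrl to between 377 and 631 counts. On the CPM scale it had 0.149 and 0.179 in TN. It had 13.9 and 13.7 CPM in PRTN, 13.7 and 14.7 in BUTN, with 13.9 and 19.9 in TNPR and 13.2 and 20.9 in TNBU. The libraries without SCFA all stayed under 0.2 CPM and the SCFA libraries all exceeded 13, with log2 fold changes of 6.24 ± 0.90, 6.28 ± 0.90, 6.51 ± 0.90 and 6.52 ± 0.90 (adjusted p from 4.33e-05 to 6.86e-05). An unnamed gene overlaps COL5A3 on the opposite strand in GENCODE release 44. The library kit was a stranded one, but whether counting used strand is not given in the sources used here, so reads of the 2 may be mixed. The same holds for unnamed genes opposite COL1A1, COL5A1 and COL9A1, for PEF1-AS1 opposite COL16A1 and for COL4A2-AS1 and COL4A2-AS2 opposite COL4A2. The window of COL5A3 is shown as that of a member that was nearly silent in TN.
COL5A3 at chr19:10010455-10010754, minus strand: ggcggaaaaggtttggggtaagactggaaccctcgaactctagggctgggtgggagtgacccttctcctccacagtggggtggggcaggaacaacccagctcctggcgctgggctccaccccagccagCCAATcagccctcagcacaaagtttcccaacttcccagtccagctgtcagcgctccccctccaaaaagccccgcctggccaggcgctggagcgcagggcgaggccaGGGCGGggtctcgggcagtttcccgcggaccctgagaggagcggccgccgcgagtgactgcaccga
It held 1 GGGCGG and 1 CCAAT, and its GC content was 66.7%.

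COL5A1, the most abundant fibrillar member, moved little. It had 518 and 574 CPM in TN and 637 to 833 CPM in the SCFA libraries, and all of the latter were higher. The log2 fold changes were 0.46, 0.59, 0.28 and 0.42 with an SE of 0.07 each, and only 0.59 in BUTN, a 1.5-fold rise, passed the fold threshold. That call was lost without TN replicate 1, at 0.49, and without BUTN replicate 1, at 0.53. It was also lost with edgeR's own low-count filter (0.55), with no low-count filter (0.56) and fitted on the 2 groups alone (0.58). COL5A2, its usual partner chain, rose from 1.45 and 1.97 CPM in TN to between 5.15 and 7.58 CPM, at log2 fold changes of 1.80 to 2.01 with SEs of 0.25. The ratio of COL5A1 to COL5A2 counts accordingly went from between 288 and 353 to between 83.9 and 152 (exact permutation test, p = 0.00202, the smallest possible).

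COL3A1 and COL24A1 were low in all libraries. COL3A1, which encodes type III collagen of soft connective tissue, had 6 and 1 counts in TN and 18 to 43 with an SCFA, and its neighbour COL5A2, 19.2 kb away and tail to tail with it, also rose in all 4 comparisons. COL24A1 had 7 and 1 counts in TN and 13 to 27 with an SCFA. Both were called up in all 4 comparisons. For COL3A1 the log2 fold changes were 2.96 to 3.44, and they depended on the TN library, at 4.02 to 4.49 without TN replicate 1 and 1.85 to 2.32 without TN replicate 2.

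COL27A1, a fibrillar chain of cartilage and other tissues, was the one member of the class that fell. It had 155 and 151 CPM in Ctrl and 140.86 and 140.9 in TN. In the SCFA libraries it had 73.0 and 71.7 CPM in PRTN, 70.5 and 67.9 in BUTN, with 84.4 and 65.4 in TNPR and 73.6 and 70.1 in TNBU. Even the highest of these lay well below TN, at log2 fold changes of -0.96, -1.03, -0.92 and -0.97 with an SE of 0.09 each (adjusted p from 1.17e-06 to 2.31e-06).

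Markers of fibroblasts did not move as 1 block beside these genes. Of 10 such markers, 3 reached 1 CPM in Ctrl and TN and 3 or 4 with an SCFA. Their summed level was 353 to 408 CPM without SCFA and 186 to 296 CPM with it, most of it TAGLN, a smooth muscle and myofibroblast gene. LUM, a proteoglycan that binds collagen fibrils, rose from 8.30 and 7.75 CPM in TN to between 31.8 and 60.7 CPM. PDGFRA had no count in TN and at most 0.782 CPM with an SCFA, and DPT had none in Ctrl or TN. The 5 endothelial markers summed to at most 0.287 CPM without SCFA and to between 2.29 and 3.87 CPM with it. The 6 leukocyte markers summed to between 27.5 and 52.4 CPM over the libraries, most of it CD68, a lysosomal gene, at 23.1 to 48.8 CPM. CD14 rose from 0.633 and 0.897 CPM in TN to between 2.13 and 3.53 CPM with an SCFA, and PTPRC had at most 0.152 CPM. The part of other cell types in the collagen results was not tested.

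**Figure D4:**
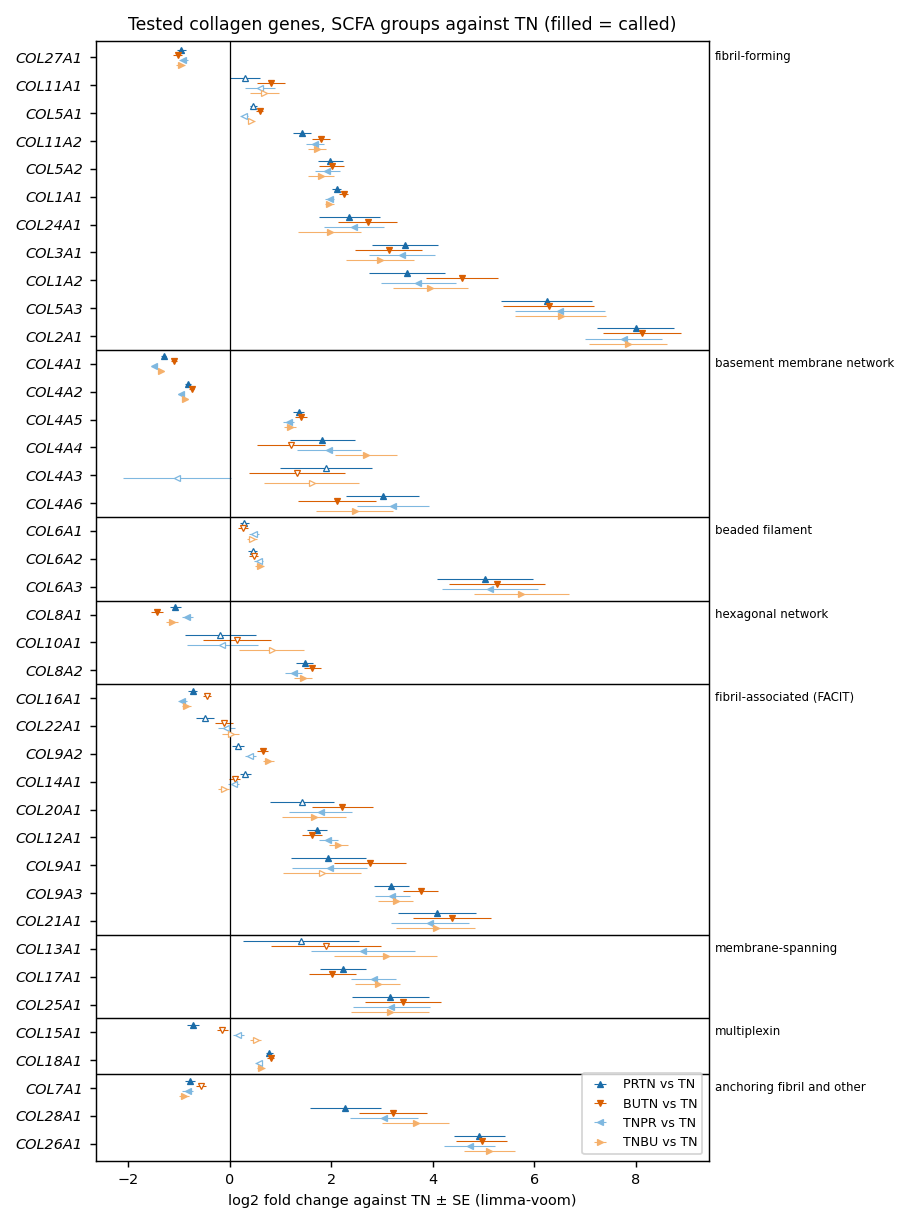
Points give the log2 fold change against TN with its SE (limma-voom) of the 40 tested collagen genes in the 4 SCFA groups, by class; filled symbols mark called genes. The points of COL4A1, COL4A2, COL8A1 and COL27A1 are filled and left of 0 in all 4 groups, and COL15A1 crosses 0. Values for genes with no count in TN (COL1A2, COL2A1, COL4A6, COL13A1, COL25A1) depend on the small count that the fit adds.

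Fibril-associated collagens bind to the surface of fibrils, and they were mixed. Of 9 tested, 4 rose and 1 fell in PRTN, 6 and 0 in BUTN, and 5 and 1 in TNPR and TNBU, against the same 23.1% to 25% and 14.8% to 16.9% of all genes. The risers include COL21A1, which reached the filter only through its SCFA libraries, so their count is a description. The summed level of the class stayed between 454 and 516 CPM in the SCFA groups, against 481 ± 16.8 in TN. COL14A1, the most abundant of them in counts, was not called in any group against TN. It had 269.98 and 280.3 CPM in TN and 216 to 341 CPM in the SCFA libraries, with log2 fold changes of 0.31, 0.10 and 0.08 in PRTN, BUTN and TNPR and of -0.12 in TNBU, the last of which turned to 0.07 with library size alone as the scaling.

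COL12A1, which links fibrils in stretched tissue, rose in all 4. It had 12.2 and 14.3 CPM in Ctrl and 12.1 and 11.6 in TN. The SCFA libraries had 41.3 and 37.0 CPM in PRTN, 35.9 and 37.3 in BUTN, with 36.8 and 57.3 in TNPR and 52.1 and 52.6 in TNBU. Every SCFA library was above every other, at log2 fold changes of 1.72, 1.62, 1.94 and 2.14 with an SE of 0.19 each (adjusted p from 1.02e-06 to 1.45e-05). The 2 TNPR replicates differed from each other more than the PRTN and TNPR means did.

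COL16A1, found near basement membranes and small fibrils, fell instead. It had 172 and 164 CPM in Ctrl and 156 and 166 in TN. With an SCFA it had 95.6 and 98.9 CPM in PRTN, 124 and 113 in BUTN, with 92.4 and 76.5 in TNPR and 84.4 and 93.3 in TNBU. No SCFA library reached a TN or Ctrl library. Falls of 0.73, 0.94 and 0.86 on the log2 scale in PRTN, TNPR and TNBU passed the test, and in BUTN the value was -0.45 ± 0.09, 1.37-fold lower. With library size alone as the scaling the PRTN value was -0.58 and missed the fold threshold.

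The 3 chains of type IX collagen, which coats type II fibrils, had unequal changes. COL9A3 rose from 0.335 and 0.538 CPM in TN and 0.996 and 0.681 in Ctrl to between 3.71 and 6.69 CPM, at log2 fold changes of 3.19, 3.76, 3.20 and 3.27 with SEs of 0.34 to 0.35. COL9A2, at 26.7 and 29.6 CPM in TN, passed the test in BUTN (45.9 and 42.4 CPM) and TNBU (45.4 and 49.5 CPM), at 0.65 ± 0.11 and 0.75 ± 0.11. The first call was lost without BUTN replicate 1 (0.56) and without TN replicate 1 (0.55). Its values of 0.16 in PRTN and 0.41 in TNPR were under the fold threshold. COL9A1 had 2 and 1 counts in TN and 5 to 16 with an SCFA, and was called up in all but TNBU. The gene TCFL5 overlaps COL9A3 on the opposite strand. COL20A1 and COL21A1 had at most 4 counts in a library without SCFA and 4 to 23 with one. COL21A1 was called up in all 4 groups and COL20A1 in all but PRTN, and COL22A1, at 2.66 to 4.50 CPM, was not called in any group against TN.

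The beaded-filament chains of type VI collagen, which surround cells, were of 2 kinds. COL6A1 had 96.9 and 109 CPM in TN and 119 to 156 in the SCFA libraries, and its log2 fold changes of 0.26 to 0.47 were under the fold threshold. COL6A2, 93.1 kb away on chromosome 21, had 125 and 149 CPM in TN and 184 to 224.5 with an SCFA. It passed in TNBU, at 0.59 ± 0.09, a 1.51-fold rise lost without TN replicate 1 and without TNBU replicate 2. This call was also lost with edgeR's own low-count filter (0.57), with no low-count filter (0.57) and fitted on the 2 groups alone (0.58). In all 8 SCFA libraries both genes exceeded their TN values. COL6A3, the largest of the chains, had 2 and 1 counts in TN against 82 and 73 in PRTN, 87 and 93 in BUTN, with 58 and 112 in TNPR and 91 and 133 in TNBU. From these counts its ratio to TN was 41.9 (14.1 to 206), 49.3 (16.6 to 241), 47.7 (16 to 233) and 69.6 (23.5 to 340, 95% counting intervals). Type VI collagen needs all 3 chains, and per exon length COL6A3 in TNBU stood at 0.177 CPM per kb beside 25.3 for COL6A1 and 38.7 for COL6A2.

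The chains of type VIII collagen, which forms hexagonal lattices, moved in opposite directions. COL8A1 had 234 and 242 CPM in Ctrl and 216 and 218 in TN. It had 102 and 104 CPM in PRTN, 81.6 and 79.2 in BUTN, with 106 and 139.6 in TNPR and 87.4 and 109.8 in TNBU. It fell in all 4, by 1.07, 1.43, 0.84 and 1.15 on the log2 scale (adjusted p from 5.34e-07 to 3.65e-05). COL8A2 had 3.46 and 4.85 CPM in TN and 8.91 to 12.9 CPM in the SCFA libraries, and rose by 1.48, 1.62, 1.26 and 1.44. Per exon length the ratio was still with COL8A1 in every group, at 23.1 and 0.89 CPM per kb in TN and 8.54 and 2.72 in BUTN. COL10A1, the type X chain of growth cartilage, had 2 to 10 counts per library and was called in none.

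The multiplexins are basement membrane collagens with large non-helical parts, and their members differed. COL18A1, whose C-terminal fragment is endostatin, had 461 and 477 CPM in Ctrl and 373 and 439.9 in TN. It had 687 and 701 CPM in PRTN, 728 and 686 in BUTN, with 622 and 585 in TNPR and 616 and 624 in TNBU. All SCFA libraries were higher than all others. Rises of 0.78, 0.80 and 0.61 in PRTN, BUTN and TNBU passed the test, and 0.57 ± 0.07 in TNPR, 1.49-fold, was under the fold threshold. The TNBU call was lost without TN replicate 1, at 0.48. SLC19A1 overlaps COL18A1 on the opposite strand.

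COL15A1, the other multiplexin, was the only member that differed by the test between groups with the SCFA first and last. Its Ctrl libraries had 22.7 and 20.3 CPM and its TN libraries 17.3 and 17.0. It had 10.1 and 10.7 CPM in PRTN and 15.1 and 15.7 in BUTN, where the SCFA came first. It had 17.5 and 21.2 CPM in TNPR and 23.1 and 25.8 in TNBU, where the SCFA came last. PRTN was thus below TN (-0.72 ± 0.12, limma-voom adjusted p = 0.000174), BUTN differed from TN by -0.15, TNPR by 0.17 and TNBU by 0.51 ± 0.10, the last a 1.42-fold difference under the fold threshold. With library size alone as the scaling the PRTN value was -0.57 and missed the fold threshold.

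Compared directly, the COL15A1 level was higher for both acids where the SCFA came last. Time since TNF-α differed between these groups too, so it cannot be told apart from the order. The log2 difference was 0.89 ± 0.11 in TNPR vs PRTN (adjusted p = 0.00697) and 0.66 ± 0.10 in TNBU vs BUTN (adjusted p = 0.0144, limma-voom). COL15A1 was the 1 member called in each of these comparisons, where 0.0534% and 0.0945% of all tested genes rose and 0 members fell against 0.107% and 0.173% of genes. At an unadjusted p under 0.05 there were 10 and 13 members. Fitted on the 2 groups alone, neither call held (limma-voom adjusted p = 0.173 and 0.147). The first was lost without PRTN replicate 1 (0.15), and the second without BUTN replicate 1 (0.197), BUTN replicate 2 (0.124) or TNBU replicate 2 (0.0772). An unnamed gene overlaps COL15A1 on the opposite strand.

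Membrane-spanning collagens are transmembrane proteins of epithelia and neurons. COL17A1, the hemidesmosomal chain that binds keratinocytes to their basement membrane, rose from 0.521 and 0.682 CPM in TN to 2.55 and 3.29 in PRTN, 2.44 and 2.51 in BUTN, with 3.64 and 5.34 in TNPR and 3.5 and 6.07 in TNBU. The log2 fold changes were 2.24 ± 0.45, 2.02 ± 0.46, 2.84 ± 0.44 and 2.92 ± 0.44 (adjusted p from 0.000105 to 0.00247). COL25A1 had no count without SCFA and 3 to 8 with it, at least 1.35-fold to 1.65-fold higher. COL13A1 had no count without SCFA and 0 to 5 with it. It was called up in TNPR, where it did not exceed the limit of 3 counts, and in TNBU, at least 1.24-fold higher.

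Propionate and butyrate were given at 15 mM and 3 mM, so their values stand side by side without a test. Given first, they left COL4A1 at 1002 ± 14.3 and 1154 ± 20.6 CPM and COL1A1 at 178 ± 4.13 and 196 ± 8.9 CPM (SD, n = 2). Given last, they left COL4A1 at 883 ± 16.8 and 974 ± 66.4 CPM and COL1A1 at 163 ± 23.2 and 161 ± 1.37 CPM.

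Genes that modify, export, trim, cross-link or bind collagen were taken from 5 lists of 46 genes in all, each of which was tested. In TN vs Ctrl 0 were called. Against TN, 17 rose and 9 fell in PRTN, 15 and 7 in BUTN, with 17 and 9 in TNPR and 16 and 7 in TNBU. Of all tested genes 23.1% to 25% rose and 14.8% to 16.9% fell. ADAMTS14 and LAIR1 had no count in Ctrl or TN, and ADAMTS2 and ITGA11 had at most 1 and 2 counts in a library there. All of these reached the filter only through their SCFA libraries, so the counts of risers are a description. The median log2 fold change of the 46 was 0.0877, 0.103, 0.116 and 0.0835, near that of all genes. From each list the 3 called genes with the largest changes are named, among those with a mean of at least 5 CPM in any 1 group, which P4HA3 reached with an SCFA alone.

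SERPINH1 is the chaperone of the collagen triple helix (HSP47), and it fell most. It had 752 and 741 CPM in Ctrl and 649.9 and 741 in TN. With an SCFA it had 74.3 and 83.1 CPM in PRTN, 131 and 125 in BUTN, with 76.9 and 54.0 in TNPR and 92.5 and 76.9 in TNBU. All 8 were far below the lowest value without SCFA, and the log2 fold changes were -3.14 ± 0.13, -2.44 ± 0.12, -3.43 ± 0.13 and -3.04 ± 0.13 (adjusted p from 9.17e-10 to 1.12e-08, limma-voom). In the same list of 8 chaperone and export genes, FKBP10, a prolyl isomerase of the endoplasmic reticulum, fell in PRTN and TNPR (-0.79 and -0.63), and TMEM38B, a channel needed for normal collagen synthesis, rose in all 4 (0.79 to 1.09).

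P4HA2, a catalytic subunit of prolyl 4-hydroxylase, fell from 277 and 299 CPM in TN to between 116 and 152 CPM, at log2 fold changes of -1.30, -1.26, -1.01 and -1.05. Its sister subunit P4HA3 rose from 0.608 and 0.47 CPM in TN to between 5.4 and 8.93 CPM, at 3.41 to 3.82. P3H3, which acts with lysyl hydroxylase, fell from 56.7 and 63.8 CPM to between 17.4 and 23.6 CPM, at -1.73 to -1.43. Of the 15 genes in the list 4 or 5 rose and 2 or 3 fell in each group, near the 23.1% to 25% and 14.8% to 16.9% of all tested genes.

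Of the propeptide-removal genes, the N-proteinase ADAMTS3, which trims procollagen II among others, rose from 35.7 and 35.1 CPM in TN to 340.3 and 330.4 in PRTN, 242 and 253 in BUTN, with 265 and 304 in TNPR and 275 and 231 in TNBU. Its log2 fold changes were 3.24, 2.80, 3.00 and 2.83 with an SE of 0.10 each, and its Ctrl libraries had 44.6 and 49 CPM. BMP1, the C-proteinase, fell from 243 and 263 CPM to between 107 and 146 CPM, at -1.08, -0.84, -1.16 and -1.10. TLL2, a relative of BMP1, rose from 2.49 and 3.34 CPM to between 5.69 and 8.32 CPM, at 1.03 to 1.42.

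The cross-linking enzyme LOX (lysyl oxidase) fell from 151 and 147 CPM in TN to between 42.7 and 58.0 CPM, at log2 fold changes of -1.77, -1.62, -1.47 and -1.44. LOXL1 fell from 122 and 145 CPM to between 27.5 and 43.0 CPM, at -2.08, -1.70, -2.23 and -1.97. LOXL3 rose from 5.69 and 6.15 CPM to between 7.83 and 12.4 CPM, at 0.59 to 0.98, while LOXL2, at 785 and 883 CPM in TN, was not called. Among the 10 receptor genes 6 rose and 1 fell in each group, against 23.1% to 25% and 14.8% to 16.9% of all tested genes. The risers include LAIR1, with no count in Ctrl or TN, and ITGA11, with at most 2 counts in a library there. ITGA10 and GP6 also averaged under 1 CPM, so the count of risers is a description. The integrin chains ITGA1 and ITGA2 rose, at 0.72 to 1.16 and 1.18 to 1.45, and MRC2, which takes up collagen for degradation, fell in all 4, at -0.81 to -0.65.

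**Figure D5:**
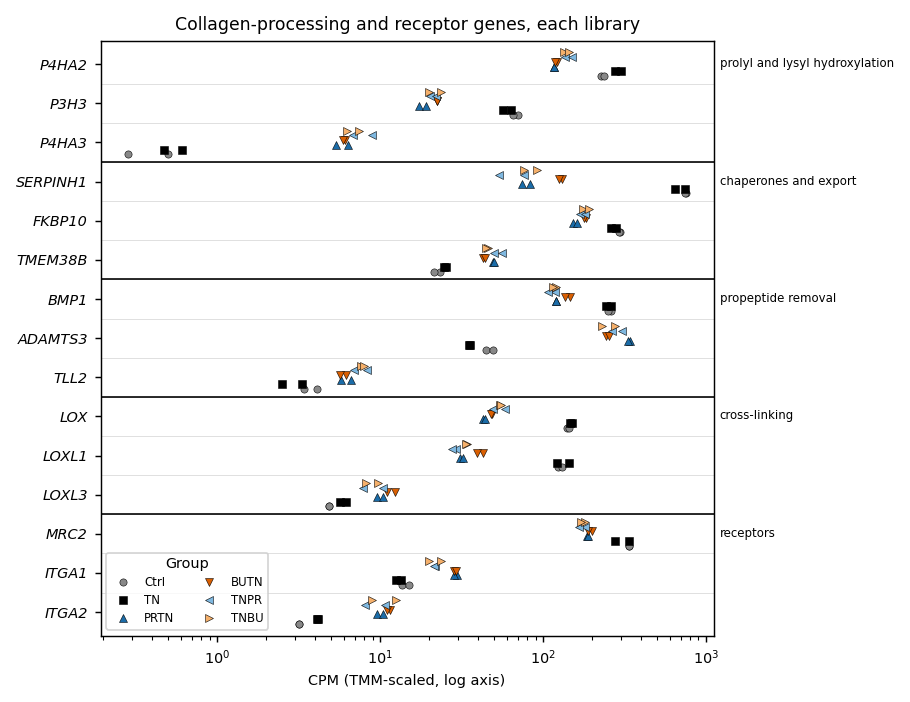
Points give the CPM (TMM-scaled, log axis) of 15 genes from the 5 collagen-processing and receptor lists in each of the 12 libraries. SERPINH1, LOX, LOXL1, P4HA2, P3H3, BMP1 and MRC2 have all SCFA points to the left of the TN and Ctrl points, and ADAMTS3, P4HA3, TLL2, TMEM38B, ITGA1 and ITGA2 have them to the right.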

How the data were processed

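RNA from HK2 cells was sequenced in 12 libraries, 2 for each of 6 groups. The authors aligned reads with STAR 2.6.1a to GRCh38 and counted them with RSEM on the GENCODE 26 annotation. They deposited the RSEM expected counts for each gene in 1 table for each library. The libraries were made with a stranded mRNA kit, but whether counting used strand is not given in the sources used here. Of all values 19.3% were not whole, and they entered the fit as they were. Genes with a geometric mean of counts (1 added, then subtracted) of at least 1 were kept. Counts were scaled with TMM factors (edgeR 4.0.16) and tested with limma-voom (limma 3.58.1, R 4.3.3) on all 12 libraries with 6 group means, Benjamini-Hochberg adjustment over 24342 genes, a fold change above 1.5 and an adjusted p below 0.05. Low-count folds take 3 counts for a library at 0, and their intervals are exact. All collagen chain genes were described, and from each of the other lists the 3 called genes with the largest changes and a mean of 5 CPM or more in any group. The gene family and the lists were chosen with earlier results of these data known. Alternatives were edgeR's quasi-likelihood test and DESeq2 1.42.0, both on rounded counts, other scalings, filters and thresholds, fits on fewer libraries and a replicate block. Gene positions and merged exon lengths are from GENCODE 44 and matched all 44 members.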

Additional observations from a re-analysis of the deposited data

Results flagged for a closer look

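COL15A1, which encodes a collagen of the basement membrane zone, was the member for which the 2 orders of treatment gave different levels by a direct test. For propionate the level was higher when the SCFA followed TNF-α, by 0.89 on the log2 scale (both libraries of TNPR above both of PRTN, limma-voom adjusted p = 0.00697). For butyrate it was higher by 0.66 (both libraries of TNBU above both of BUTN, adjusted p = 0.0144). Order and time since TNF-α cannot be told apart here. The replicates of TNPR and TNBU differed more from each other over all genes than those of the other groups, and the part of this in the result was not tested.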

How the results depend on the processing

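Calls of single genes were followed for members with a mean of at least 1 CPM in any group, which gave 85 called values. Of 1178 alternative values for these, 1128 kept their direction and their side of the threshold, 50 missed the threshold and 0 changed direction. Calls of members under that level are not in this tally, nor are alternatives whose filter removed the gene. With a fold change over 2, fallen members numbered 2 in PRTN, 2 in TNBU and 1 in TNPR, and 0 rose in either order comparison. Fitted on the 2 groups compared alone, 0 rose in TNPR vs PRTN and 0 in TNBU vs BUTN. Leaving out 1 library gave 0 to 1 risen members in TNPR vs PRTN and 0 to 2 in TNBU vs BUTN, and 18 to 22, 20 to 23, 20 to 21 and 20 to 24 in PRTN, BUTN, TNPR and TNBU against TN. With any zero removing a gene, 30 members were tested and 14 rose in TNPR. With the SCFA before TNF-α alone, the COL4A5 to COL4A6 ratio changed by -1.32, a value that also rests on the zero counts of COL4A6. Causes were not tested, beyond the fewer genes or libraries that some alternatives hold by construction. Same-numbered libraries did not deviate together over all tested genes (correlations from -0.0334 to 0.067). A pairing that touches only some genes is not excluded by this. With the replicate block 22, 25, 23 and 26 members rose and 7, 4, 6 and 6 fell in PRTN, BUTN, TNPR and TNBU, with 0 called in TN vs Ctrl and 1 risen in each order comparison. With 2 libraries a group, members of a few counts stay at the limit of depth.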
